A study of Homo sapiens with 6 samples.

Results

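The genes described here are the ubiquitin-conjugating enzymes named UBE2, chosen by name alone: every gene of the count table whose Ensembl identifier maps to a protein-coding symbol beginning with UBE2. The rule gave 36 of the 20042 genes of the table, and 32 of the 36 had enough counts to be tested. The cells were MDA-MB-231, an established line of human breast cancer cells. In 3 cultures they had been transfected with a control siRNA (siCTRL, genotype labelled WT), and in 3 others with siRNA-1 directed against ERBBride (genotype labelled ERBBride knock down). An siRNA is a short RNA duplex that directs the breakdown of transcripts matching it. The labels number the replicates of each group 1 to 3 as biological replicates, and no source used here states the dose or the time after transfection. The p-values therefore measure the spread between these samples. The series title names a long non-coding RNA and the stability of EGFR, and the design contrasts the 2 siRNA groups. ERBBride has no row under that name, so its knockdown could not be checked.

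Ubiquitin is attached to proteins by a relay. An E1 enzyme activates it, an E2 enzyme carries it as a thioester on a catalytic cysteine, and an E3 ligase brings the loaded E2 to the substrate. The E2 largely sets which kind of chain is built, and some E2 enzymes carry related modifiers in place of ubiquitin: NEDD8 (UBE2M and UBE2F) or ISG15 (UBE2L6), for example. Many UBE2 genes come as close paralogues that serve overlapping sets of ligases, and ubiquitin attached to EGFR marks the receptor for sorting to the lysosome.

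Libraries held between 12813706 and 15014434 counts. Levels are in CPM, counts relative to the total of each library after TMM scaling. Every fold change sets siRNA-1 against siCTRL and comes from the quasi-likelihood test of edgeR, with p-values adjusted over 12440 genes. In the shallowest library 3 counts equalled 0.234 CPM, a limit for counting error only. Against the other controls, siCTRL 2 had a median log2 difference of -0.11 over the tested UBE2 genes and 0.0026 over all tested genes. Results of sets that rest on this library are given with and without it, while most estimates of single members are not. Of 5 genes typical of this cell line (VIM, CD44, CAV1, MSN, AXL), none was at 0, and their summed level ranged from 6929 to 7256 CPM in siCTRL and from 3545 to 3674 CPM in siRNA-1. The part of this difference in the results below was not tested. The luminal marker PGR and the blood cell marker CD3E were at 0 in every library, as was the endothelial marker CDH5. The 4 luminal genes summed to at most 13.002 CPM in any library, the 4 blood cell genes to at most 2.12 CPM and the 3 endothelial genes to at most 8.70 CPM.

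The UBE2 genes moved in both directions, and the largest difference was the fall of UBE2D1. Of the 32 tested, 15 rose, 10 fell and 7 did not pass the threshold of 0.05. Across all tested genes 62.5% changed, 31.5% upwards and 31.0% downwards, so the 25 changed UBE2 genes (78.1%) stand beside a background in which most genes changed. Their median log2 fold change was 0.17, against 0.0059 over all tested genes, and without siCTRL 2 it was 0.11, against -0.00032. A change of at least 1.5-fold was seen in 12 members, 7 lower and 5 higher, against 26.3% of all tested genes. The values of the 2 groups did not overlap at 27 of the 32, against 67.6% of all tested genes. Leaving out 1 library at a time gave 14 to 17 rises and 10 falls. The number changed at least 1.5-fold was then 10 (without siCTRL 1) to 13 (without siCTRL 3), and 11 without siCTRL 2.

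**Figure D1:**
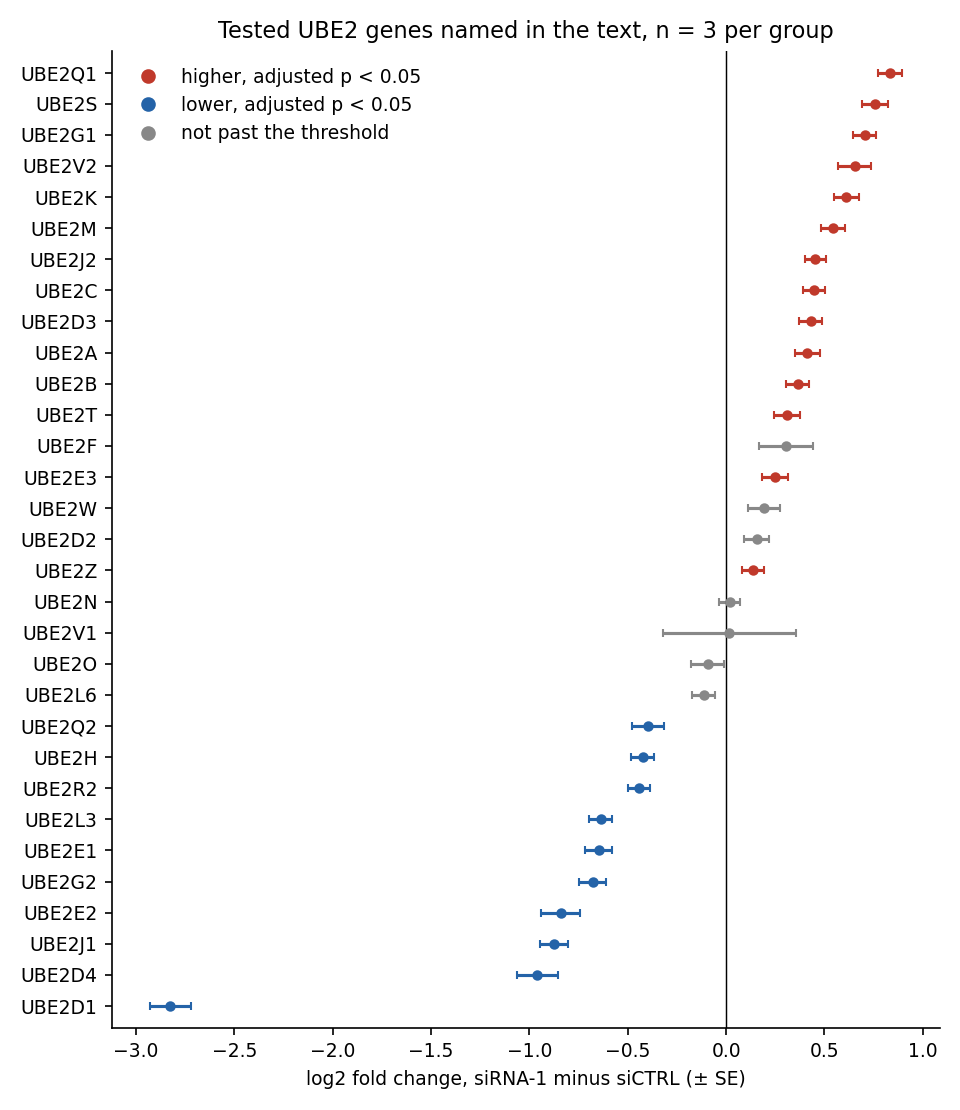
Log2 fold change of the tested UBE2 genes that are named here (x axis, siRNA-1 minus siCTRL, bars ± SE, n = 3 per group), ordered by size. UBE2D1 lies apart at -2.82, while the others lie between -0.96 (UBE2D4) and 0.83 (UBE2Q1).

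The UBE2D genes encode the most widely used E2 enzymes, which work with very many RING and HECT ligases, CBL among them. UBE2D1 (ENSG00000072401) occupies 58334975 to 58370753 of chromosome 10, plus strand, in GRCh38. Its level was 44.4, 42.6 and 47.6 CPM in siCTRL 1 to 3 and 5.87, 7.29 and 5.79 CPM in siRNA-1 1 to 3. All siRNA-1 libraries lay far below all controls, and in bulk RNA fewer expressing cells and less RNA per cell cannot be told apart. Its mean was 44.8 ± 2.54 CPM against 6.32 ± 0.841 CPM (SD, n = 3). UBE2D1 thus fell 7.08-fold (log2 fold change -2.82, SE 0.11, adjusted p = 2.3e-09, edgeR). Of the 12440 tested genes, 26 had a log2 fold change at or below this value, UBE2D1 included. The estimate lay between -2.94 and -2.76 in every alternative run.

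The other UBE2D genes differed in direction. UBE2D4 measured 27.7, 22.5 and 27.1 CPM in siCTRL and 13.6, 13.8 and 12.3 CPM in siRNA-1, with siCTRL 2 the lowest control. UBE2D4 fell 1.95-fold (log2 fold change -0.96, SE 0.11, adjusted p = 8.7e-06, edgeR). UBE2D3 went the other way, with 329, 295 and 331 CPM in siCTRL and 428, 438 and 419 CPM in siRNA-1. UBE2D3 rose 1.35-fold (log2 fold change 0.43, SE 0.057, adjusted p = 4.3e-05). UBE2D2 measured 141, 131 and 151 CPM in siCTRL and 158, 164 and 150 CPM in siRNA-1, groups that overlap, and did not pass (log2 fold change 0.15, SE 0.064, adjusted p = 0.0531). That adjusted p for UBE2D2 ranged from 0.0129 to 0.184 over the alternatives and was under the threshold in 4 of them, among them scaling by library size only (0.0129) and the fit without siCTRL 3 (0.0231).

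**Figure D2:**
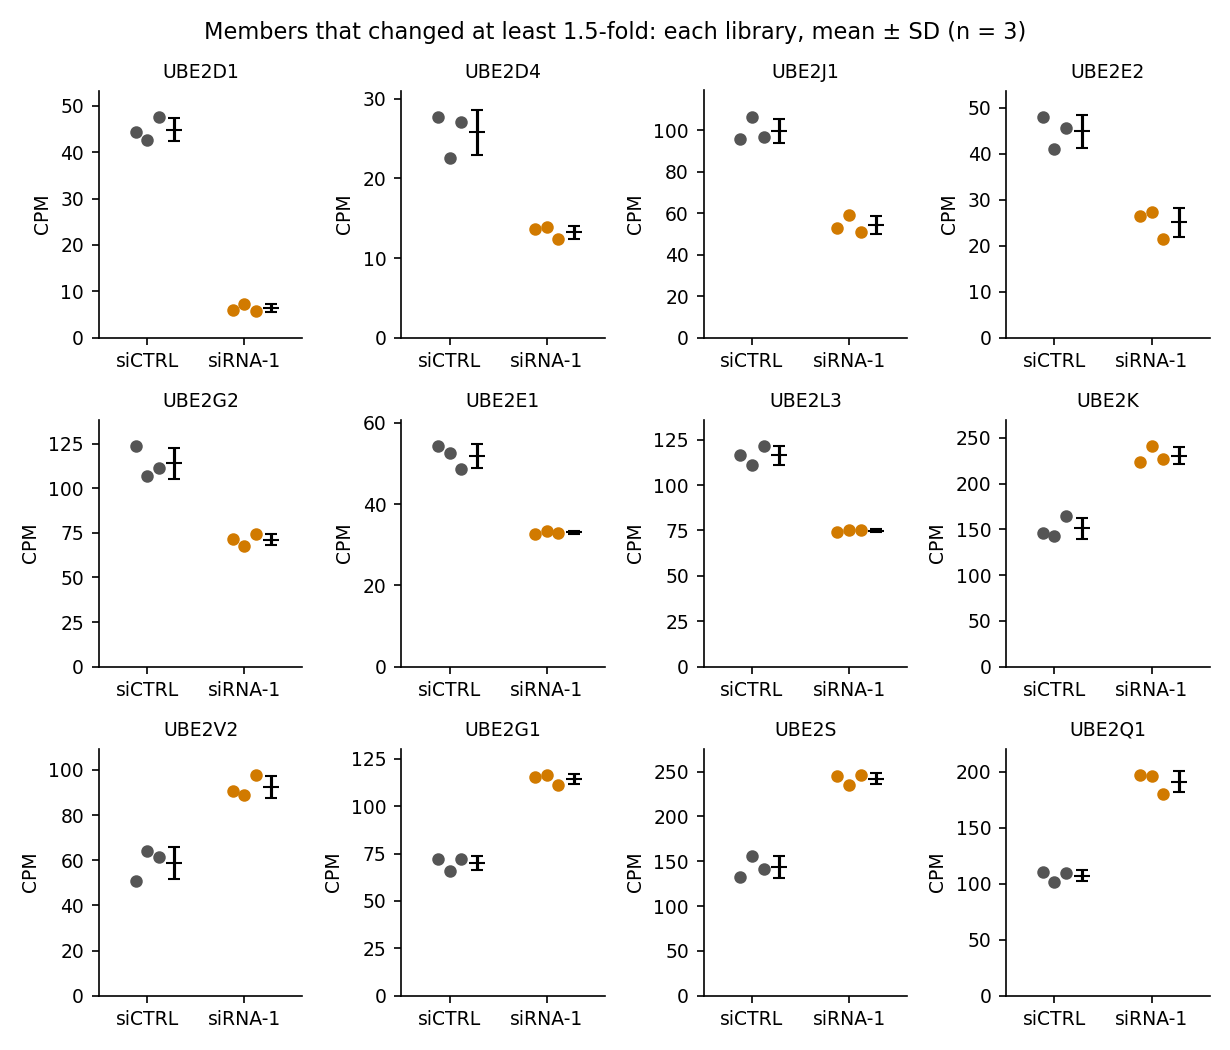
Level of each of the 12 UBE2 genes that changed at least 1.5-fold (y axis, CPM, from 0) in each library, with mean ± SD of 3 libraries beside the points. The 7 falls and 5 rises are separate between the groups in every panel, and the gap largest as a fold is that of UBE2D1 (44.8 against 6.32 CPM).

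The 3' untranslated region (UTR) of UBE2D1 holds the 7 bases GCTCACT. Of 16384 sequences of 7 bases, this one differed most in share between the 3' UTRs of genes that fell at least 2-fold (36.4% of 1004) and those of the other tested genes (17.2% of 11254). It was thus picked on the same libraries and supports nothing about them, and no source used here gives the sequence of siRNA-1. Sites of 2 of the 3 members that fell and hold it, UBE2D1 and UBE2L3, are shown first, then that of a member that rose, UBE2J2, each on the gene's own strand from GENCODE 29 transcripts (GRCh38), with GCTCACT in capitals.
UBE2D1 at chr10:58369156-58369184, plus strand: attctttgttaGCTCACTttataatttgt
UBE2L3 at chr22:21622838-21622866, plus strand: ctccacttgaaGCTCACTcagtaatatcc
UBE2L3 at chr22:21623875-21623903, plus strand: tgctgccccaaGCTCACTcaggaattcac
UBE2J2 at chr1:1254559-1254587, minus strand: gccaggagcctGCTCACTccaaccacaag

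The sequence was present in 3 of the 10 UBE2 genes that fell (30.0%), in 1 of the 15 that rose (6.67%) and in 2 of the 7 that did not pass, UBE2N and UBE2O. Over all tested genes with a 3' UTR of at least 50 bases it was present in 29.4% of those that fell and 11.3% of those that rose. The counts of the family are to be read beside these shares. The median 3' UTR length was 1664.5 bases in the genes that fell and 1276 in those that rose. In the UBE2 genes it was 2581 and 1691 bases. A longer 3' UTR has more places for any 7 bases, and the part of length in these shares was not tested. UBE2J1, UBE2E1, UBE2E2, UBE2G2, UBE2H, UBE2Q2 and UBE2R2 fell and have no such sequence in the longest annotated 3' UTR.

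The UBE2E genes encode E2 enzymes with an extended N terminus, and their levels diverged. UBE2E1 measured 54.3, 52.6 and 48.5 CPM in siCTRL and 32.8, 33.5 and 32.9 CPM in siRNA-1. UBE2E2 measured 48.0, 41.0 and 45.6 CPM in siCTRL and 26.4, 27.4 and 21.5 CPM in siRNA-1. Both fell, UBE2E1 by 1.57-fold (adjusted p = 7.2e-06, edgeR) and UBE2E2 by 1.79-fold (adjusted p = 1.6e-05). UBE2E3 measured 116, 112 and 131 CPM in siCTRL and 141, 147 and 139 CPM in siRNA-1, and rose 1.19-fold (log2 fold change 0.25, SE 0.066, adjusted p = 0.00593). The counts of UBE2E3 carry a limit that is given below with the coding sequences. UBE2E1 and UBE2E2 lie close together on chromosome 3, from 23805903 to 23891316 and from 23203020 to 23591793, whereas UBE2E3 lies on chromosome 2.

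UBE2C and UBE2S, which work with the anaphase-promoting complex (APC/C), the ligase that drives exit from mitosis, were higher. UBE2C places the first ubiquitin on APC/C substrates and UBE2S extends the chain. UBE2C measured 129, 143 and 141 CPM in siCTRL and 189, 185 and 188 CPM in siRNA-1, a rise of 1.36-fold (adjusted p = 2.6e-05, edgeR). UBE2S measured 133, 156 and 141 CPM in siCTRL and 245, 235 and 246 CPM in siRNA-1, a rise of 1.69-fold (log2 fold change 0.76, SE 0.064, adjusted p = 1.1e-06). In both genes every siRNA-1 library exceeded every control. Of the 50-base stretches of the UBE2S transcript, 17.5% also occur in its pseudogenes UBE2SP1 and UBE2SP2, so its counts are uncertain to an extent that was not measured.

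UBE2A, UBE2B and UBE2T rose by less than 1.5-fold. UBE2A and UBE2B, the homologues of yeast RAD6 that act on histone H2B and on PCNA, rose 1.33-fold and 1.29-fold. UBE2A measured 130, 113 and 130 CPM in siCTRL and 165, 170 and 162 CPM in siRNA-1 (adjusted p = 0.00016, edgeR). UBE2B measured 77.0, 72.6 and 79.4 CPM in siCTRL and 101, 94.6 and 98.8 CPM in siRNA-1 (adjusted p = 0.00022). UBE2T, the E2 of the Fanconi anaemia pathway, rose 1.24-fold from 61.7 ± 4.88 to 76.6 ± 1.44 CPM (adjusted p = 0.0017). On the X chromosome, 18.1% of the exonic bases of UBE2A overlap NKRF on the other strand, and no source used here states the strand setting of the counting.

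UBE2J1 and UBE2J2, anchored in the membrane of the endoplasmic reticulum (ER), where misfolded proteins are ubiquitinated for export and degradation, moved in opposite directions. UBE2J1 (chromosome 6, 89326625 to 89352848, minus strand) measured 95.7, 106 and 96.8 CPM in siCTRL and 53.1, 59.0 and 51.0 CPM in siRNA-1. It fell 1.83-fold (log2 fold change -0.87, SE 0.072, adjusted p = 8.8e-07, edgeR). UBE2J2 measured 64.7, 66.7 and 64.3 CPM in siCTRL and 89.4 CPM in each siRNA-1 library, a rise of 1.37-fold (adjusted p = 1.9e-05).

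UBE2G2 works with ligases of the ER membrane, and UBE2G1, its paralogue, with cullin-4 ligases. UBE2G2 (chromosome 21, 44768580 to 44802019, minus strand) measured 124, 107 and 111 CPM in siCTRL and 71.7, 67.9 and 74.1 CPM in siRNA-1, and fell (log2 fold change -0.68, SE 0.068, adjusted p = 4.4e-06, edgeR). UBE2G1 (chromosome 17, 4269259 to 4366628, minus strand) measured 72.3, 65.8 and 72.3 CPM in siCTRL and 115, 116 and 111 CPM in siRNA-1. It rose 1.63-fold (log2 fold change 0.70, SE 0.060, adjusted p = 1.2e-06). For both genes the groups were separate, in opposite directions.

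UBE2L3 loads HECT and RBR ligases, and UBE2L6 is the E2 for ISG15, a modifier induced by interferon. UBE2L3 measured 117, 111 and 122 CPM in siCTRL and 74.0, 75.4 and 75.1 CPM in siRNA-1, a fall of 1.56-fold (log2 fold change -0.64, SE 0.057, adjusted p = 1.9e-06, edgeR). UBE2L6 measured 72.5, 79.4 and 74.0 CPM in siCTRL and 69.4, 69.0 and 70.3 CPM in siRNA-1. Its groups did not overlap, yet the difference did not pass (log2 fold change -0.11, SE 0.059, adjusted p = 0.114). UBE2L5, a close copy of UBE2L3, had between 1 and 6 counts per library and was not tested.

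UBE2N builds chains linked through lysine 63 together with a catalytically inactive partner, UBE2V1 or UBE2V2. UBE2N did not pass, at 127 ± 4.66 CPM in siCTRL and 129 ± 3.13 CPM in siRNA-1 (adjusted p = 0.794, edgeR), and 39.5% of its exonic bases overlap NUDT4 on the other strand. UBE2V2 measured 50.8, 64.0 and 61.5 CPM in siCTRL and 90.5, 88.9 and 97.8 CPM in siRNA-1, with siCTRL 1 the lowest control. UBE2V2 rose 1.57-fold (log2 fold change 0.65, SE 0.083, adjusted p = 3.0e-05). UBE2V1 had between 10 and 14 counts per library, or 0.684, 0.777 and 0.966 CPM in siCTRL and 0.699, 0.795 and 0.954 CPM in siRNA-1 (adjusted p = 0.968). Of its 50-base stretches, 98.01% also occur in transcripts of other genes, chiefly the readthrough gene PEDS1-UBE2V1, which had 0 counts in every library. The level of UBE2V1 therefore cannot be taken from these counts.

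The E2 enzymes for NEDD8 were both higher on average, and UBE2M passed the test. UBE2M, which passes NEDD8 to most cullins, averaged 70.0 ± 4.35 CPM in siCTRL and 102 ± 0.805 CPM in siRNA-1 and rose 1.46-fold (log2 fold change 0.54, SE 0.061, adjusted p = 1.1e-05, edgeR). UBE2F, which serves CUL5, did not pass, at 7.92 ± 1.25 and 9.78 ± 0.500 CPM (adjusted p = 0.0712), a value that ranged from 0.0179 (without siCTRL 3) to 0.247 over the alternatives. Of the stretches of the UBE2F transcript 24.7% are shared, chiefly with the readthrough gene UBE2F-SCLY, so its counts are uncertain.

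UBE2Q1 had the largest rise of the family. It measured 110, 101 and 110 CPM in siCTRL and 197, 196 and 180 CPM in siRNA-1, a rise of 1.78-fold (log2 fold change 0.83, SE 0.061, adjusted p = 3.2e-07, edgeR). A log2 fold change at or above this value was found in 444 of the 12440 tested genes. Its paralogue UBE2Q2 went the other way and fell 1.32-fold, from 53.7 ± 5.42 to 40.8 ± 2.41 CPM (adjusted p = 0.0013). UBE2Q1 (ENSG00000160714) lies on the minus strand of chromosome 1 from 154548577 to 154559028 and UBE2Q2 on chromosome 15.

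The remaining members act alone within the family. UBE2K, which builds chains linked through lysine 48 by itself, measured 146, 142 and 164 CPM in siCTRL and 224, 241 and 226 CPM in siRNA-1 and rose 1.53-fold (adjusted p = 6.0e-06, edgeR). UBE2R2, a paralogue of CDC34 that serves SCF ligases, fell 1.36-fold from 102 ± 4.09 to 75.1 ± 2.26 CPM (adjusted p = 3.8e-05). CDC34 itself did not pass, at 67.7 ± 2.69 and 70.1 ± 2.93 CPM (adjusted p = 0.497). UBE2H, the E2 of the CTLH ligase, fell 1.34-fold from 245 ± 12.1 to 183 ± 8.85 CPM (adjusted p = 5.8e-05).

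Small or undetected differences were found at 3 further genes. UBE2Z, which receives ubiquitin from the E1 enzyme UBA6, rose 1.10-fold from 168 ± 7.44 to 185 ± 5.33 CPM (adjusted p = 0.0464, edgeR), and this call was lost in 9 of 13 alternatives, where its adjusted p was as high as 0.152. Leaving out any 1 library other than siCTRL 3 was among the alternatives that lost it. UBE2W, which modifies protein N termini, measured 26.1, 22.9 and 24.3 CPM in siCTRL and 27.9, 27.3 and 28.8 CPM in siRNA-1 and did not pass (adjusted p = 0.0551, range 0.0256 to 0.146). UBE2O, which combines E2 and E3 activity, measured 49.9 ± 5.73 and 46.7 ± 1.82 CPM (adjusted p = 0.347). Besides UBE2L5, the genes not tested were UBE2QL1 with 0 counts, UBE2F-SCLY with 1 count over all libraries, and UBE2U with 0 counts in siCTRL and 1 to 3 counts per siRNA-1 library. UBE2NL is a polymorphic pseudogene in GENCODE 29 and so fell outside the rule, with 17 counts in all.

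Because paralogues diverged, the make-up of some paralogue groups differed more than their sums. Levels were divided by the exonic length of each gene and summed. The UBE2D sum was 89.6 ± 5.92 CPM per kilobase in siCTRL and 91.3 ± 3.39 in siRNA-1 (difference of log2 values 0.029, exact two-sided permutation p = 0.7), and without siCTRL 2 the difference turned to -0.0232. Within that sum UBE2D1 held 14.4% ± 0.325 in siCTRL and 1.98% ± 0.198 in siRNA-1, while UBE2D3 went from 35.3% ± 0.665 to 46.6% ± 0.688 (exact permutation p = 0.10 for each). With 3 samples against 3 the smallest p this test allows is 0.10, so no share or sum could pass the threshold. Without division by length the UBE2D sum was 530 ± 34.4 CPM in siCTRL and 605 ± 18.4 CPM in siRNA-1. That is a difference of 0.19 on the log2 scale (exact permutation p = 0.10), so the near-equal UBE2D sum depends on the division by length. UBE2D3 then held 60.05% and 70.8%.

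Shares within other groups differed as well, and in the UBE2J pair the gene with the larger share was not the same in the 2 siRNA groups. UBE2J1 held 62.6% ± 0.939 of the UBE2J sum in siCTRL and 40.0% ± 1.83 in siRNA-1. UBE2G1 held 50.1% ± 1.33 and 72.3% ± 1.36 of the UBE2G sum (38.1% and 61.6% without division by length). UBE2Q1 went from 64.9% ± 1.70 to 81.3% ± 1.42 and UBE2E3 from 56.8% ± 2.60 to 72.2% ± 0.756 of their groups. UBE2A held 50.4% ± 1.13 and 51.3% ± 1.38 of the UBE2A and UBE2B sum, a difference within the spread (exact permutation p = 0.5). The groups did not overlap for the other 21 of the 23 shares (exact permutation p = 0.10 each, the smallest possible, and 0.110 after Benjamini-Hochberg adjustment over the 23). Among the levels of all tested genes, 67.6% did not overlap either. In a pair the 2 shares mirror each other, so the shares are not separate results. Without division by length the share of UBE2D2 had an exact permutation p of 0.3. Those 21 include the shares of UBE2V1 and UBE2V2, which carry the limit on UBE2V1 given above. Among the 10 sums, that of UBE2C and UBE2S was 1.47-fold higher and that of UBE2L 1.26-fold lower in siRNA-1 (exact permutation p = 0.10 each, 0.125 after adjustment).

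**Figure D3:**
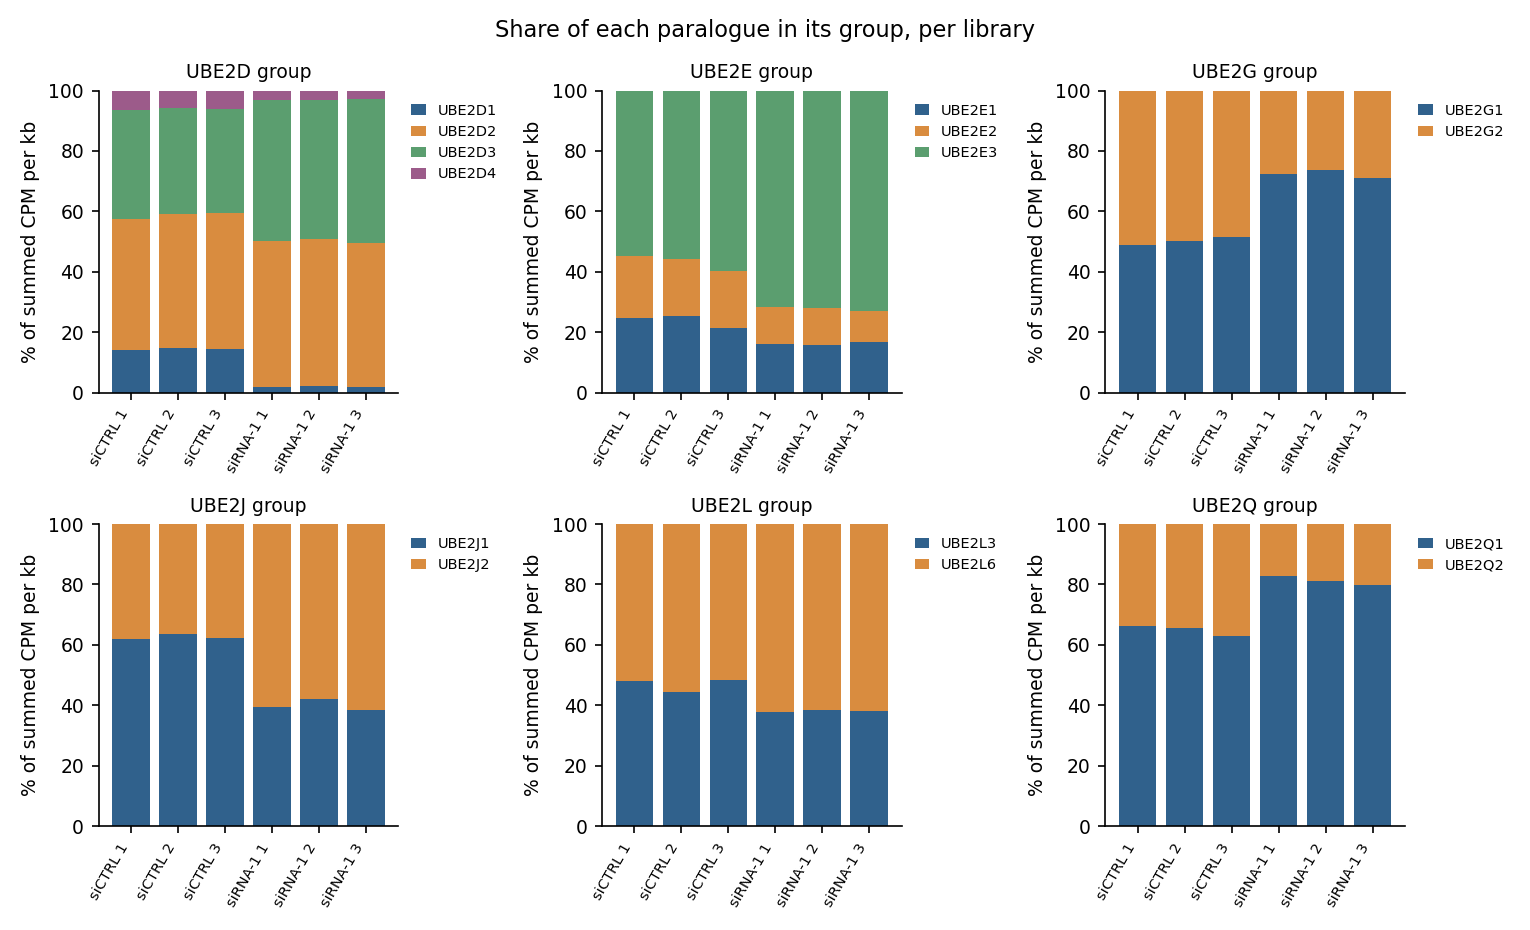
Share of each paralogue in the summed level of its group (y axis, % of CPM per kilobase of exon) in each of the 6 libraries. UBE2D1 makes up 14.4% of the UBE2D group in siCTRL and 1.98% in siRNA-1, and UBE2J2 37.4% and 59.99% of the UBE2J group.

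By level per exonic length, UBE2C was the highest member in both groups, at 107 ± 5.80 CPM per kilobase in siCTRL and 146 ± 1.69 in siRNA-1, followed by UBE2S at 51.4 ± 4.29 and 86.8 ± 2.20. In siCTRL the next 5 members, UBE2E3, UBE2D2, UBE2M, UBE2H and UBE2T, lay between 40.3 and 37.4 with neighbours in this order closer together than their SDs. In siRNA-1, UBE2H had gone from rank 6 to rank 14 (28.1 ± 1.36) and UBE2Q1 from rank 13 to rank 6 (46.0 ± 2.33). UBE2D1 was at 12.9 ± 0.729 in siCTRL, above UBE2D4 (5.47 ± 0.604), and at 1.81 ± 0.241 in siRNA-1, below UBE2D4 (2.81 ± 0.173). Exonic length here is the union of all annotated exons, which overstates the length of genes with long minor transcripts, such as UBE2D3.

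**Figure D4:**
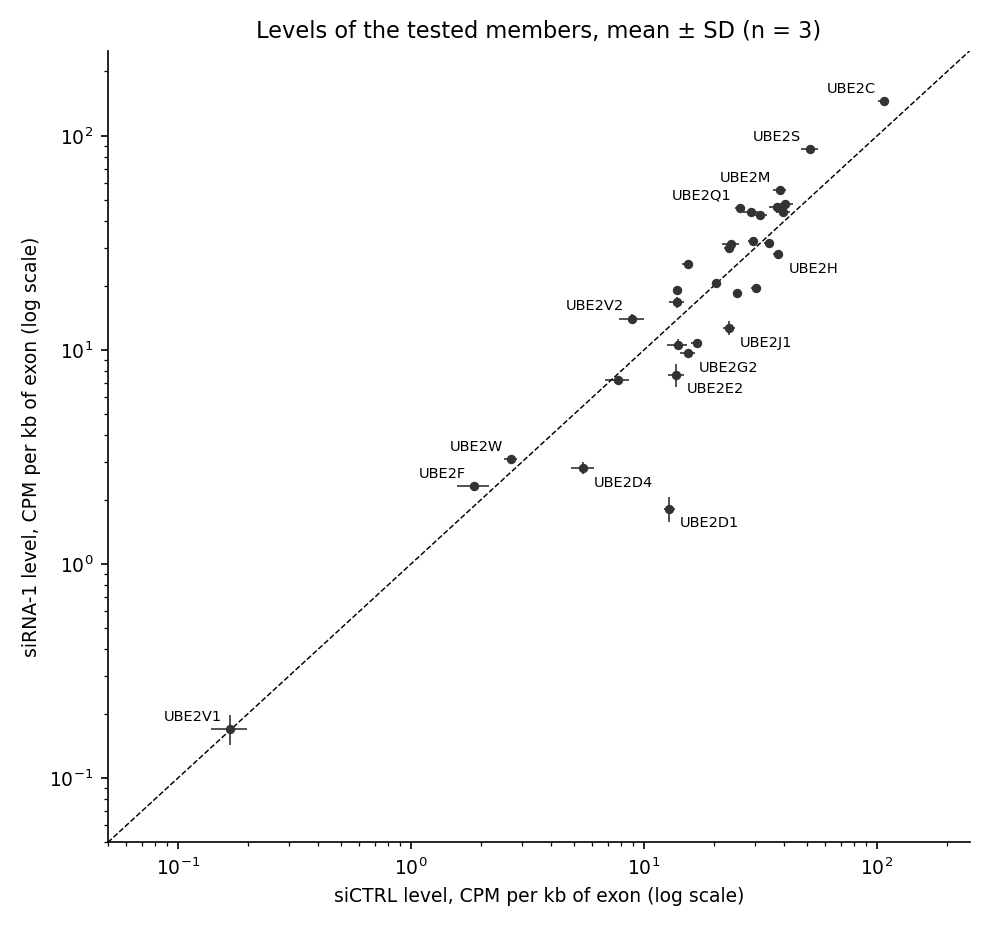
Mean level of each tested UBE2 gene in siRNA-1 (y axis) against siCTRL (x axis), in CPM per kilobase of exon on log axes, bars ± SD of 3 libraries, with equal levels on the dashed line. UBE2C is highest in both groups (107 and 146), and UBE2D1 is the point farthest below the line.

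The coding sequences of the paralogues compared here differ at many bases. UBE2D1 is identical to UBE2D2, UBE2D3 and UBE2D4 at 78.5%, 76.1% and 77.6% of aligned coding bases, and UBE2D2 to UBE2D3 at 84.6%. UBE2E2 and UBE2E3 are identical at 77.3%, UBE2A and UBE2B at 80.5%, UBE2G1 and UBE2G2 at 57.0% and UBE2J1 and UBE2J2 at 44.5%. No 50-base stretch of the UBE2D1, UBE2E1, UBE2E2, UBE2J1, UBE2J2, UBE2K, UBE2Q1, UBE2C or UBE2T transcript occurs in a transcript of another gene. For UBE2D3 4.01% of stretches are shared, with UBE2D2 and with pseudogenes, for UBE2L3 6.83% and for UBE2M 10.7%. For UBE2D4 15.5% of exonic bases overlap genes on the other strand.

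Genes that work with the UBE2 enzymes were described in 12 lists. Their counts are to be read beside the 31.5% of all tested genes that rose and the 31.0% that fell. Among the 9 E1 enzymes 3 rose and 2 fell, a changed share of 55.6% near the 62.5% over all tested genes. UBA2, a subunit of the SUMO E1, rose 1.37-fold from 107 ± 4.36 to 147 ± 3.46 CPM, and NAE1, a subunit of the NEDD8 E1, fell 1.76-fold from 59.4 ± 2.04 to 33.7 ± 2.64 CPM (adjusted p = 1.9e-05 and 1.8e-06, edgeR). UBA1, the main E1 for ubiquitin, rose 1.33-fold from 501 ± 19.7 to 668 ± 14.98 CPM. Among 8 E2 enzymes under other names 4 rose, led by the autophagy gene ATG3 (1.36-fold), and 1 fell, AKTIP (1.27-fold), or 2 without siCTRL 2 and 2 with no filter on low counts. Of 12 genes for ubiquitin and similar modifiers 4 rose and the other 8 did not pass, and 1 fell without siCTRL 2. ISG15 rose 2.41-fold from 49.9 ± 8.21 to 120 ± 4.79 CPM, and the polyubiquitin gene UBB did not pass (log2 fold change 0.063).

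Ligases of the cell cycle and of cullins held both rises and falls. Of 17 APC/C genes 10 rose and 3 fell (median log2 fold change 0.24, against 0.0059 over all tested genes). ANAPC5 rose 1.65-fold from 145 ± 3.67 to 239 ± 11.3 CPM, the activator CDC20 rose 1.47-fold, and ANAPC16 fell 2.29-fold from 97.1 ± 7.02 to 42.4 ± 1.03 CPM. Of 17 tested genes of cullins and neddylation 9 rose and 2 fell, a changed share of 64.7% near the 62.5% over all tested genes, with CUL1 1.34-fold higher and CUL4B 1.53-fold lower, and 5 fell without siCTRL 2. Of 11 CTLH genes 6 rose and 3 fell, led by RMND5A (1.82-fold higher) and YPEL5 (1.75-fold lower).

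Lists of the SUMO pathway and of partners of lysine-63 chains and DNA repair also moved both ways. Their changed shares (9 of 15 and 13 of 25 genes) were under the 62.5% of all tested genes. Of 15 SUMO ligase and protease genes 7 fell and 2 rose (median log2 fold change -0.18), and the protease gene SENP6 fell 2.06-fold from 86.0 ± 6.56 to 41.8 ± 2.18 CPM while SENP5 rose 1.45-fold. A single rise was counted without siCTRL 1, siCTRL 3, siRNA-1 2 or siRNA-1 3, and at a mean of at least 100 counts. Of 25 partners of lysine-63 chains and DNA repair 6 rose and 7 fell, or 10 rose without siCTRL 2 and 4 fell without siRNA-1 1 or siRNA-1 2. RNF40, which acts with UBE2A and UBE2B on histone H2B, rose 1.62-fold and RNF168, which acts with UBE2N, fell 1.86-fold.

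Lists tied to UBE2L3, UBE2L6, the ER and EGFR split as well. The changed counts were 8 of 13, 5 of 6, 6 of 13 and 9 of 15 genes, beside 62.5% of all tested genes. Of 13 tested RBR ligase and related genes 5 rose and 3 fell, or 3 rose without siCTRL 1 or siCTRL 3 and 5 fell at a mean of at least 100 counts, with RNF144A 3.47-fold lower and the deubiquitinase gene CYLD 1.64-fold higher. Of 6 ISG15 genes 4 rose and 1 fell, with a rise of 2.09-fold at HERC5, the ligase for ISG15, and a fall of 1.22-fold at TRIM25, whereas the E1 for ISG15, UBA7, did not pass (log2 fold change -0.053). Of 13 tested genes of ER-associated degradation 2 rose and 4 fell, or 7 fell without siCTRL 2. The ligase SYVN1 rose 1.67-fold from 75.1 ± 1.90 to 126 ± 1.41 CPM, and its partner SEL1L fell 1.33-fold. Of 15 tested ligase, deubiquitinase and adaptor genes that act on EGFR 7 rose and 2 fell, with GRB2 1.28-fold higher and OTUD7B 1.53-fold lower. The EGFR transcript itself fell 1.27-fold, from 459 ± 17.9 to 360.1 ± 15.2 CPM (adjusted p = 0.00015, edgeR).

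**Figure D5:**
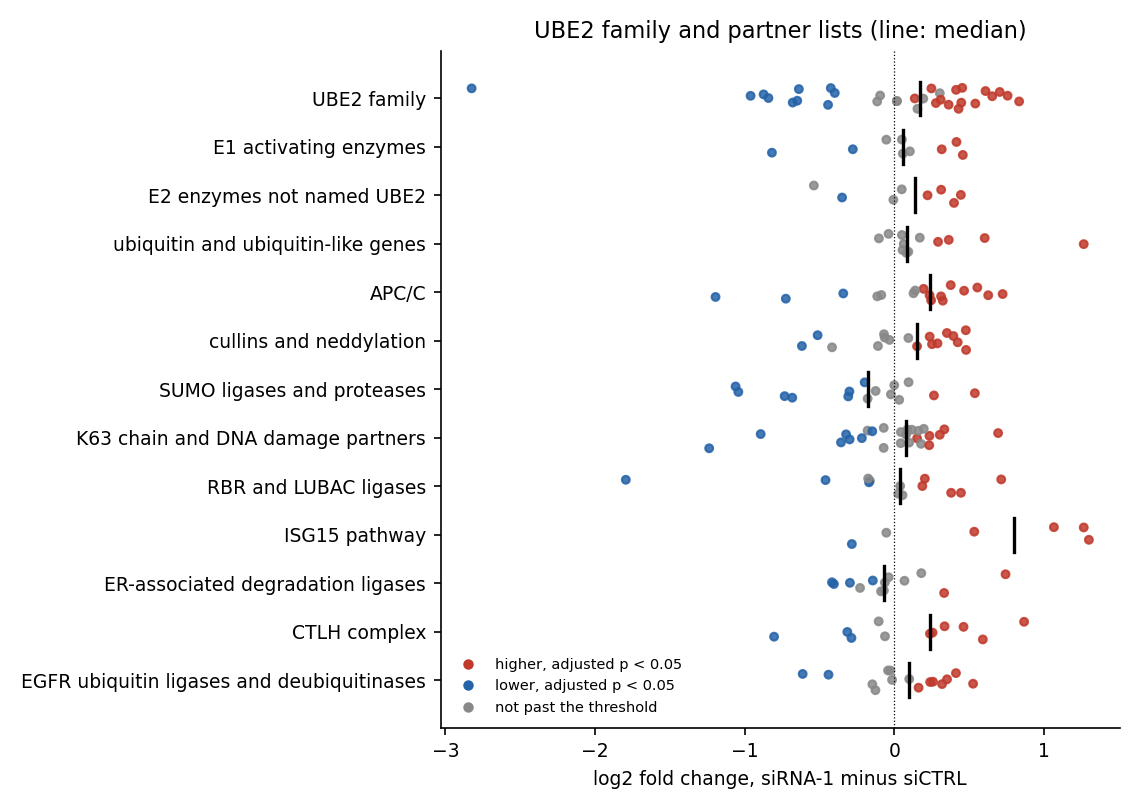
Log2 fold change (x axis, siRNA-1 minus siCTRL) of each tested gene of the UBE2 family and of 12 partner lists, 1 point per gene, with the list median as a line. Most points lie within 1 unit of 0 in either direction, and the ISG15 list has the highest median (0.80, 6 genes).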

How the data were processed

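Per the labels, total RNA of 6 cultures was made into libraries with an NEBNext Ultra kit. The authors deposited raw counts per Ensembl gene, made with HTSeq. The submitters' processing notes also name Trimmomatic, STAR, kallisto and hg38. No source used here states their versions, the annotation release or the strand setting. Symbols were matched by identifier, and positions, exons and transcripts came from GENCODE 29 (GRCh38).

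Counts were tested with edgeR 4.0.16 in R 4.3.3: filterByExpr (minimum count 10, minimum total 15), factors from the trimmed mean of M values (TMM, 0.972 to 1.02), quasi-likelihood F test on group alone, two-sided, Benjamini-Hochberg over 12440 genes, threshold 0.05. The SE came from the fold change and its F. Paralogue sums and shares had an exact permutation test. Alternatives used DESeq2 1.42.0, limma 3.58.1 (voom), other scalings and filters, a replicate block and each library left out. Of these steps, only the edgeR fit was run on simulated counts. Far fewer genes changed there than in these libraries, so its false calls at the present share of changed genes were not tested. Depth was at least 12813706 counts.

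The members, lists and tests were chosen with earlier results of these data known. Values per library are given for members changed at least 1.5-fold and for the UBE2D, UBE2E, UBE2A/B, UBE2L, UBE2V and UBE2C/S groups. One tested member that rose, counted in all totals, is not reported here. Other lists give the member with the smallest adjusted p in each direction. UBA1, UBB, CDC34, CDC20, UBA7 and EGFR were added as direct partners after their values were seen.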

Additional observations from a re-analysis of the deposited data

How the results depend on the processing

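Under 13 alternatives, 25 of the 32 tested UBE2 genes kept their direction and their side of the threshold in every fit that tested them, and all 10 falls were among those 25. Rises numbered 14 to 18 and falls 10 or 11 (the latter at a mean of at least 100 counts, where UBE2L6 passed). The cause of the other changes was not tested. Small values turned sign: UBE2N was -0.020 at a mean of at least 100 counts and ranged from -0.00667 to 0.0396 with 1 library left out, and UBE2V1 ranged from -0.11 to 0.16 with 1 library left out. The difference in the UBE2D sum ranged from -0.0232 to 0.0714 with 1 library left out, and the share of UBE2D2 differed by -0.68 percentage points without division by length, against 4.07 with it. Same-numbered libraries did not deviate together (correlations 0.067, -0.078 and -0.057). With so few libraries per group this cannot decide whether the numbers pair the samples. With the replicate number as a block, 14 members rose and 10 fell, 12 changed at least 1.5-fold, 7535 genes changed in all, and the 1 member call lost was that of UBE2Z (adjusted p = 0.084). Scaling by library size only raised the median of all genes to 0.043. UBE2L5 and UBE2U had too few counts for the filter of the main fit, and low depth was not told apart from low expression.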
